A study of Mus musculus with 18 samples.

Results

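Tumour necrosis factor (Tnf), its receptors and their adaptors were followed through hearts of FVB mice and of TNF transgenic mice. The 7 genes were picked by symbol for their place in the pathway, with earlier results of these data known: the ligand Tnf, the receptors Tnfrsf1a and Tnfrsf1b, the adaptors Tradd, Traf1 and Traf2, and the target gene Tnfaip2. They are covered by 8 probe sets of the 12422 on the array that are not controls, and by 7 of the 8251 genes named there by a single symbol. Tnfrsf1a has 2 probe sets and each other gene has 1. All 8 passed the filter on low signals and were among the 7453 probe sets tested. The filter took the mean log2 signal over all arrays, most of them transgenic, and the lowest mean that passed was 6.8. Tnf and Traf1, with means of 5.78 and 5.55 on the FVB arrays, passed through the transgenic arrays. The second Tnfrsf1a probe set, at 6.69 on the transgenic arrays, passed through the FVB arrays.

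TNF is a cytokine made above all by macrophages and T cells, and it acts as a trimer on the cell surface or after it has been shed. Tnfrsf1a (TNFR1) is present on most cells and recruits Tradd through its death domain, which brings in Traf2 and leads to NF-kappa B and kinase signalling or to cell death. Tnfrsf1b (TNFR2) has no death domain, binds Traf2 directly and is found mainly on immune and endothelial cells. In the heart, TNF is known to depress contraction and to act in remodelling, and mice that make it in cardiac muscle develop an inflamed, enlarged and failing heart.

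Total RNA of mouse heart had been measured on Affymetrix U74Av2 arrays, and the deposited table holds 18 columns in 6 groups. At 3 weeks of age there were females and males both of FVB and of TNF transgenic mice. The later groups were males aged 13 weeks and females aged 40 weeks, all of them transgenic. FVB females 1 and 2 hold the same value in every probe set and were counted once, which leaves 17 distinct arrays, 2 of FVB females and 3 of each other group. The labels call the transgene cardiac-specific and speak of a stage of hypertrophy and a stage of dilated failure, without tying either to an age. They do not give its promoter, the line, the background strain of the transgenic mice or the sequence of the transgene, so its transcripts and those of the mouse's own Tnf are read together here. There were no FVB hearts of 13 or 40 weeks, and each later age was sampled in 1 sex, so age was compared within a sex of transgenic mice and without a control of the same age. Whether each array stands for its own animal is not stated, and the p-values reflect the spread among these arrays, part of which may be technical.

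Several FVB arrays stood apart from the rest. The array of FVB females 1 and 2 had a Spearman correlation of 0.775 to 0.856 with the other 16, against 0.956 to 0.964 among the other 4 FVB arrays, and 7.35% of its probe sets lay at the floor against 23.8% to 28.4% on the others. It is called the outlying FVB female array here. Xist, which is transcribed from the inactive X chromosome of females, read 1380.6 and 2705.7 on the libraries labelled FVB male 1 and 2 and 5.9 on that labelled FVB male 3. Eif2s3y, a gene of the Y chromosome, read 298.7, 67.4 and 544.9 on the same 3 libraries, and 115.3 on the outlying FVB female array. The sexes named below follow the labels, and the main results are also given without these libraries. Leaving out the outlying array leaves 1 FVB female, and leaving out all 3 doubted arrays (this one and the males labelled 1 and 2) leaves 1 FVB female and 1 FVB male, so those fits take the spread of a lone array from the other groups. The ratio of the 3' to the 5' Actb control probe sets, a measure of RNA integrity, was 1.71 ± 0.26 (SD, n = 5) on the FVB arrays and 1.26 ± 0.10 (SD, n = 6) on the transgenic arrays of 3 weeks, and its part in the differences below was not tested.

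The 4 genes with the largest rises at 3 weeks were Tnf, Traf1, Tnfaip2 and Tnfrsf1b, and their promoters are shown for their different starts. For Tnf this is the promoter of the mouse's own gene, while that of the transgene is not given in the labels. The part of these promoters in the rises was not tested. Each sequence is the 120 bases before the RefSeq start on build GRCm38.p6, on the gene's own strand. Tnf lies on the minus strand at chr17:35202008-35202127, Traf1 on the minus strand at chr2:34961773-34961892, Tnfaip2 on the plus strand at chr12:111442541-111442660 and Tnfrsf1b on the minus strand at chr4:145246871-145246990. Capitals mark TATAAA in Tnf and the kappa B consensus, read on the opposite strand, in Tnfaip2.
Tnf: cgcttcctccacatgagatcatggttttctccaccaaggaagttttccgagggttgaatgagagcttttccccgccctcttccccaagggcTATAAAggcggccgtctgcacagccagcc
Traf1: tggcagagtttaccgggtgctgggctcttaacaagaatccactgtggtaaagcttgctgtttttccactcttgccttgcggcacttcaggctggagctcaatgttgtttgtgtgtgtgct
Tnfaip2: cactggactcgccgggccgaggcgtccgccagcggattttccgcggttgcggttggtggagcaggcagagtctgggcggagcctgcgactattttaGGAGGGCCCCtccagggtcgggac
Tnfrsf1b: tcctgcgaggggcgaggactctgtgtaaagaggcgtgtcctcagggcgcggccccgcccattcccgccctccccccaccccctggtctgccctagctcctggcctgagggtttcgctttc
In these 120 bases Tnf has the TATAAA letters and Traf1 and Tnfrsf1b have no match to any of the 3 motifs searched. The motifs were TATAAA, the kappa B consensus and TGANTCA (the letters bound by AP-1 factors), on both strands. Over 250 bases upstream of all 32851 promoters in the RefSeq table, TATAAA was found in 12.4%, the kappa B consensus in 7.25% and TGANTCA in 6.75%. A match is a description of the letters, not a bound site. 6 of the 7 genes had a promoter in the table.

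At 3 weeks, 5 of the 7 genes were higher in transgenic than in FVB hearts (Tnf, Traf1, Tnfaip2, Tnfrsf1b and Tnfrsf1a), none was lower by the probe set that represents it, and Traf2 and Tradd did not pass the test. Across the array 46.6% of probe sets were called in this comparison and 24.7% were called higher (limma, Benjamini-Hochberg adjusted p of at most 0.05). The arrays of the 2 genotypes did not overlap for those 5 genes, against 14.5% of probe sets that were higher without overlap. The median log2 difference of the 7 genes was 1.93, beside -0.01 over all probe sets tested. These counts and this median include Tnf, which the transgene carries, so that its rise came with the design. They also include Traf1, which like Tnf passed the filter on low signals through the transgenic arrays. The other genes called higher were Tnfaip2, Tnfrsf1b and Tnfrsf1a. In these whole hearts a change in how many cells of a type are present and a change in RNA per cell cannot be told apart.

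**Figure D1:**
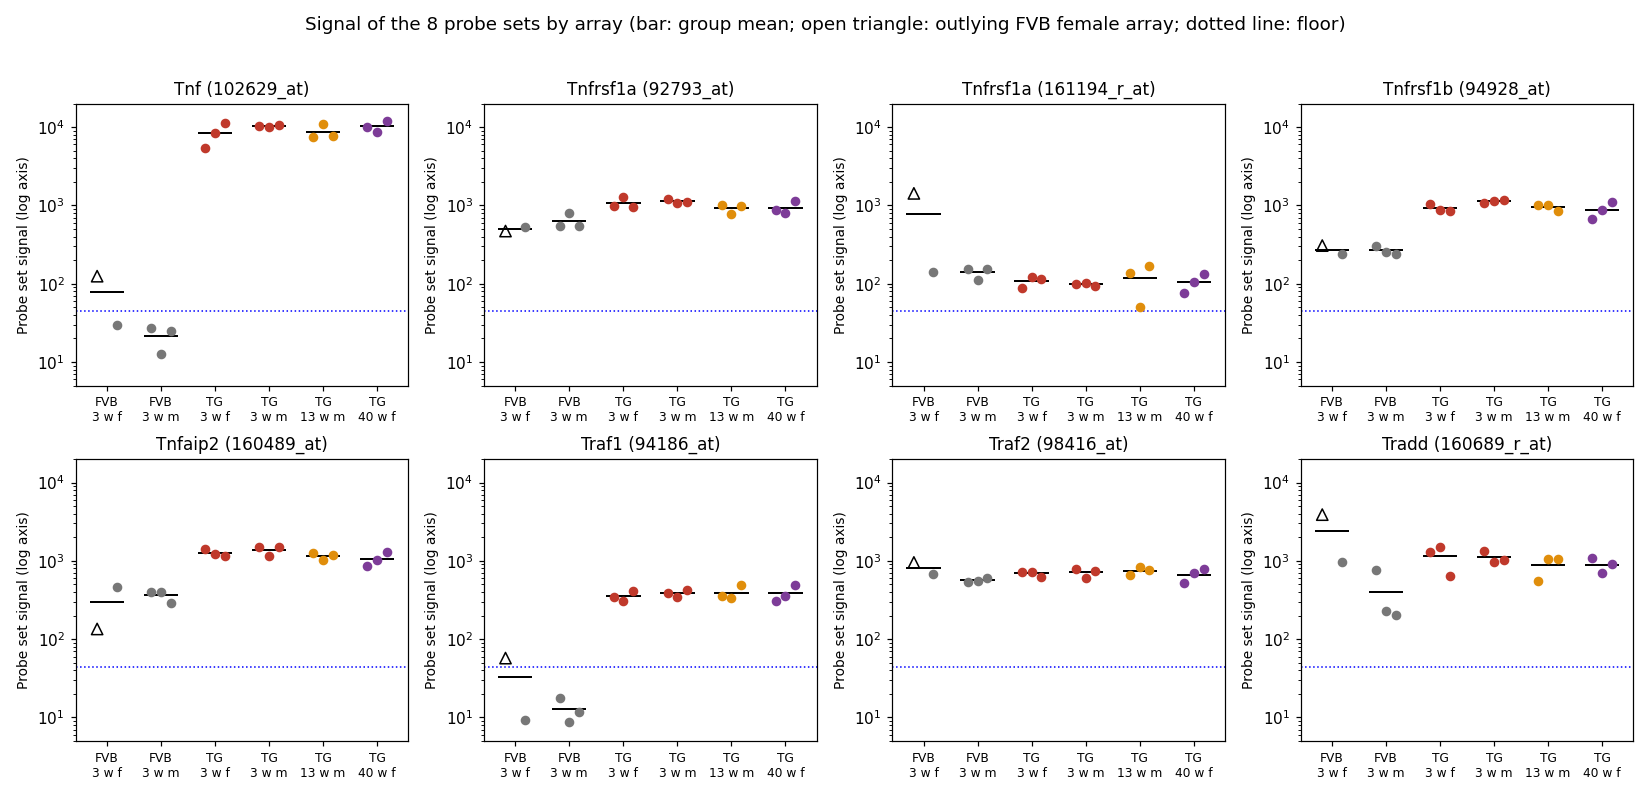
Probe set signal (vertical log axis) of the 8 probe sets on each array, by group (TG, transgenic; w, weeks; f, female; m, male), with the bar at the group mean, the floor of 44.675 dotted and the outlying FVB female array as an open triangle. Transgenic arrays lie above all FVB arrays at 3 weeks for Tnf, Tnfrsf1b, Tnfaip2, Traf1 and the representing Tnfrsf1a probe set.

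Tnf, the ligand and the gene that the transgene carries, was listed at 124.9 and 30.1 on the FVB female arrays and at 27.1, 12.5 and 25 on the FVB male arrays. The transgenic arrays of 3 weeks ran from 5475.5, with a median of 10258, to 11342.8. Every transgenic array was thus far above every FVB array, and 4 of the 5 FVB arrays were under the floor of 44.675, the 25th percentile of all values, below which signals have no order. The log2 difference was 7.31 (SE 0.235, adjusted p 1.78e-12 by limma), a lower limit of the change, and it ranked highest of the 7453 probe sets. In males, where all 3 FVB arrays lay at the floor, the signal was at least 233-fold higher. Among transgenic females of 3 weeks the 3 arrays read 5475.5, 8351.4 and 11342.8, a wider range than the 10176.8, 10339.0 and 10738.3 of the males.

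Tnfrsf1b, the receptor of immune and endothelial cells, read 307.1 and 236.7 in FVB females and 301.8, 257.1 and 242.7 in FVB males. In transgenic hearts of 3 weeks it ran from 851.2, with a median of 1063.4, to 1160.7, with no array near the FVB range. The mean rose from 269 ± 33.2 (SD, n = 5) to 1025 ± 134 (SD, n = 6), a log2 difference of 1.93 (limma adjusted p 2.98e-08, SE 0.144) or 3.8-fold.

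Tnfrsf1a, the receptor with the death domain, rose less. The probe set that represents it, with the higher mean, read 470.8 and 526.2 in FVB females and 545.9, 799.8 and 546.4 in FVB males, where the highest value was that of the library labelled FVB male 2. The transgenic arrays of 3 weeks ran from 958.9, with a median of 1103, to 1272, all above the FVB arrays. The log2 difference was 0.98 (limma adjusted p 6.91e-05, SE 0.149), a 1.98-fold rise. Tnfrsf1a ranked 822 from the top of the 7453 probe sets.

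The second Tnfrsf1a probe set went the other way. It read 1425.4 on the outlying FVB female array and 141.9, 154.7, 111.1 and 154.8 on the other FVB arrays, against 89.3 to 122 on the transgenic arrays of 3 weeks. It was called lower, with a log2 difference of -1.28 (limma adjusted p 0.0266, SE 0.441), although the genotypes overlapped, and the call was lost without the filter on low signals (adjusted p 0.0712). It was also lost when FVB male 1, FVB male 3 or transgenic female 1 was left out (log2 difference -1.24 to -1.21, limma adjusted p 0.0502 to 0.0557). With the outlying array left out its difference was -0.44 (limma adjusted p 0.247), while that of the representing probe set was 0.94 (adjusted p 0.000425). Averaged over both probe sets, the Tnfrsf1a difference was -0.15 (adjusted p 0.647) with all arrays and 0.25 (adjusted p 0.327) without the outlying array. The call of a rise in Tnfrsf1a rests on the probe set that represents it.

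Traf1, an adaptor that binds Traf2 and the receptor tails and is itself an NF-kappa B target, was listed at 57.3 and 9.4 in FVB females and at 17.8, 8.7 and 11.8 in FVB males. Only the outlying FVB female array was above the floor. The transgenic arrays of 3 weeks ran from 307.5, with a median of 368.4, to 429.3. The log2 difference was 2.96 (limma adjusted p 4.47e-10, SE 0.155), a lower limit, and in males the signal was at least 8.67-fold higher. Traf1 ranked 89 from the top of the 7453 probe sets.

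Traf2, the adaptor that links both receptors to kinase and NF-kappa B signalling, read 954.4 and 685.7 in FVB females and 539.8, 551.2 and 604.9 in FVB males. The transgenic arrays of 3 weeks ran from 612.5, with a median of 724, to 777.5, inside the FVB range. The top of that range was the outlying FVB female array, and the other 4 FVB arrays read 539.8 to 685.7. The log2 difference was 0.05 (95% interval -0.25 to 0.35, limma adjusted p 0.791), and it was 0.17 without the outlying array. In males the transgenic arrays lay above the FVB arrays without overlap, but the log2 difference of 0.33 did not pass the test (limma adjusted p 0.214).

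Tradd, the first adaptor of the death domain receptor, spread the most. It read 3890.8 on the outlying FVB female array, 974.3 on the other FVB female array and 770.4, 227.1 and 200.6 in FVB males, against 641.2 to 1485.1 on the transgenic arrays of 3 weeks. The log2 difference over both sexes was 0.44 (95% interval -0.39 to 1.27, limma adjusted p 0.373), and it was 0.94 (adjusted p 0.0635) without the outlying array. Without the 3 doubted FVB arrays it was 1.29 (limma adjusted p 0.00806), but the 2 FVB arrays then left read 974.3 and 200.6, the first of them inside the transgenic range, and the gap between them does not enter the spread. Its probe set and the second Tnfrsf1a probe set are of the kind that the manufacturer marks as picked under relaxed rules.

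Tnfaip2, named for its induction by TNF, read 134.9 and 464.4 in FVB females, where the lower value was that of the outlying array, and 400.7, 404.4 and 289.4 in FVB males. The transgenic arrays of 3 weeks ran from 1149.9, with a median of 1313, to 1517.2, above every FVB array. Its log2 difference was 2.13 (limma adjusted p 3.38e-06, SE 0.243), 4.38-fold, and it was 1.69 without the outlying array. Without all 3 doubted FVB arrays the log2 difference was 7.79 for Tnf, 3.15 for Traf1, 2.09 for Tnfrsf1b, 1.84 for Tnfaip2 and 1.03 for Tnfrsf1a, with 2 FVB arrays left. In that fit 6 of the 7 genes were called higher, and the call of Tradd rests on the spread of the other groups.

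**Figure D2:**
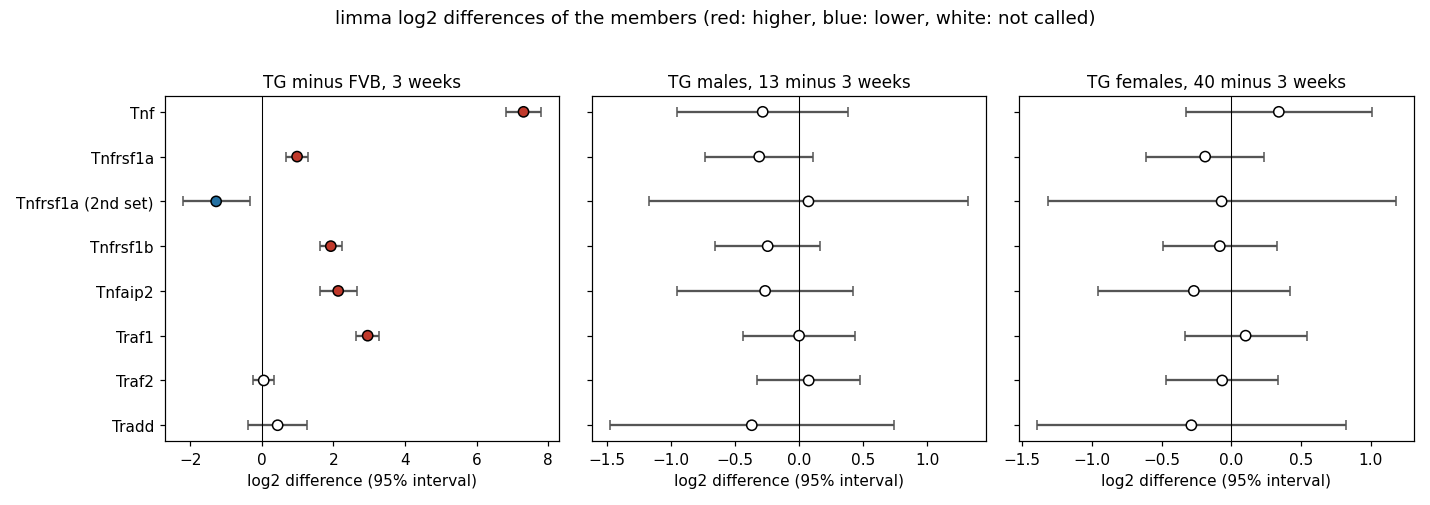
Limma log2 differences (horizontal axis) with 95% intervals for the 8 probe sets, transgenic minus FVB at 3 weeks (left), 13 minus 3 weeks in transgenic males (middle) and 40 minus 3 weeks in transgenic females (right). Red points were called higher and blue points lower, and every interval of the age comparisons includes 0.

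Taken by sex, 5 of the 7 genes were called higher in females (34.7% of probe sets called, 19.4% higher) and 6 of 7 in males (29.7% called, 16.9% higher). Tnf and Traf1 were among them in both sexes. The gene called in males alone was Tradd, with a log2 difference of 1.74 (limma adjusted p 0.0188, SE 0.522). In females it was -0.86 (adjusted p 0.266), and without the outlying array 0.14. The call in males was lost when either of the libraries labelled FVB male 2 and 3 or transgenic male 1 was left out, where its log2 difference lay between 1.39 and 1.60 with adjusted p from 0.0638 to 0.0985. It was also lost without the filter on low signals (adjusted p 0.0615). With the library labelled FVB male 1 left out, the log2 difference of Tradd in males was larger, at 2.36 (limma adjusted p 0.00223). Without the 3 doubted FVB arrays it was 2.45, with 1 FVB male left. The libraries labelled FVB male 1 and 2 carry Xist signal, so the comparisons by sex rest on labels in doubt. None of the 7 genes passed the test of a difference between the sexes in this response, and no other probe set did (0% called; 16.5% had an unadjusted p under 0.05 in limma). The female response minus the male response was -1.12 on the log2 scale for Tnf (limma unadjusted p 0.0307, adjusted p 0.262) and -2.60 for Tradd (unadjusted p 0.00439, adjusted p 0.169). Without the outlying array, with 1 FVB female left, it was -0.37 for Tnf and -1.6 for Tradd. Without the 3 doubted FVB arrays it was -0.37 for Tnf and -2.31 for Tradd. When the other FVB female array was left out, so that the outlying array alone stood for FVB females, 3 of the 7 were called (Tnf, Tradd and Tnfaip2), and over all probe sets 1492. The female, male and combined comparisons share their arrays.

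With age no change in the 7 genes was detected in transgenic hearts. None of the 7 was called in males between 3 and 13 weeks (0.523% of probe sets called) or in females between 3 and 40 weeks (0.671% called), and none had an unadjusted p under 0.05 in limma. Tnf read 7506.9, 10841.7 and 7728.2 at 13 weeks in males, a log2 difference of -0.28 from 3 weeks (95% interval -0.95 to 0.38). At 40 weeks in females it read 9937.2, 8773.5 and 12082.3, a log2 difference of 0.34 (95% interval -0.33 to 1.01). Traf1 had a log2 difference of 0.00 in males (95% interval -0.44 to 0.44) and 0.10 in females (-0.33 to 0.54), and Tnfaip2 of -0.26 (-0.95 to 0.42) and -0.27 (-0.95 to 0.42). Tradd had the widest intervals of the 7, from -1.48 to 0.74 in males and from -1.39 to 0.82 in females. Both age comparisons use the transgenic arrays of 3 weeks that also enter the comparison with FVB.

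In males the arrays of 13 weeks lay below those of 3 weeks for both receptors without passing the test. Tnfrsf1a read 1024.5, 782.4 and 969.4 against 1087.2 to 1215.2, and Tnfrsf1b read 1014.3, 1004.7 and 848.1 against 1081.5 to 1160.7. Of all probe sets, 8.22% were lower without overlap in that comparison. The log2 differences were -0.31 (95% interval -0.73 to 0.11) and -0.24 (95% interval -0.65 to 0.17), and neither passed the test. The adjusted p-values of the 7 genes ran from 0.777 to 0.999 in males and from 0.838 to 0.972 in females, and arrays overlapped for all 7 genes at 40 weeks.

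Ordered by their group means, the 4 transgenic groups overlapped with their neighbours for all 7 genes except for Tnfrsf1b, where the transgenic males of 3 weeks, at 1128 ± 41.2 (SD, n = 3), lay above those of 13 weeks, at 956 ± 93.3 (SD, n = 3). Over the 12 transgenic arrays the highest Tnf signal was 2.21 times the lowest. That ratio was 1.63 for Tnfrsf1a, 1.72 for Tnfrsf1b, 1.74 for Tnfaip2, 1.61 for Traf1, 1.57 for Traf2 and 2.72 for Tradd.

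Within the transgenic hearts the signal of Tnf was compared with that of the other genes. Over the 12 arrays the Pearson correlation of log2 signal of Tnf with the other 6 genes ran from -0.174 (Tnfaip2) to 0.267 (Traf1). Tnfrsf1b and Tnfaip2 had a correlation of 0.744, and Tnfrsf1a and Tnfaip2 of 0.715. Arrays of a group share age and sex, and a narrow range of signals limits these values. The genes most like Tnf over all 17 arrays were Mmp9 (0.995), Tmem176b (0.989) and Mmp12 (0.988), chosen as the 3 highest Pearson correlations among 5693 other genes. Those most like Tnfrsf1b were Selplg (0.993), Napsa (0.989) and Cd52 (0.984), and those most like Traf1 were Tmem176b (0.988), Mmp12 (0.987) and Cd74 (0.986). These values over 17 arrays are set by the gap between FVB and transgenic hearts. Over the 12 transgenic arrays alone the genes most like Tnf were Axin1 (0.824), Snrp1c-ps2 (0.815) and Cavin2 (0.793), none of the 3 above.

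The rest of the pathway was read from a list of other ligands, receptors, adaptors, kinases and feedback genes. Of its 122 symbols, 82 are on the array and 62 were tested: 27 were higher in transgenic hearts at 3 weeks, 10 were lower and 25 did not pass the test, with a median log2 difference of 0.25 against 0.01 over all genes tested. Across the array 46.6% of probe sets were called and 24.7% were called higher, and 2724 of 5700 genes were called, so the counts by role below are read against those shares. Without the 3 doubted FVB arrays 27 of 63 tested were higher and 8 lower. None of the 62 was called with age or between the sexes.

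Among the ligands, Ltb, which encodes lymphotoxin beta, rose by 5.0 (limma adjusted p 2.7e-08, SE 0.370) on the log2 scale, a lower limit since 3 of 5 FVB arrays were under the floor, while Lta, for lymphotoxin alpha, fell by 0.69. Among 9 receptors tested, 4 were higher and 1 lower: Tnfrsf18 rose by 1.31, the death receptor Fas by 1.23, Tnfrsf21 by 0.98 and the decoy receptor Tnfrsf11b by 0.88 on the log2 scale. Fas was under the floor on 1 FVB array and Tnfrsf11b on 2, so their differences are lower limits too.

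Of 19 adaptors and kinases tested, 5 were higher and 4 lower, close to the shares of the whole array, with a median log2 difference of -0.12. Tank, which binds TRAF proteins, rose by 1.95 and Traf5 by 1.49 on the log2 scale, while the kinase Map2k3 fell by 0.49 and Tab3 by 0.71. Among the genes of ubiquitin editing, 3 of 8 were higher and 1 lower: Birc2 and Birc3, ubiquitin ligases that bind Traf2, rose by 1.23 and 1.3, Tnip1 rose by 0.92, and Otud7b fell by 0.46. The 2 kinases related to the IKK complex that passed were Ikbke, which rose by 2.61 (limma adjusted p 1.04e-07, SE 0.217), and Tbk1, which rose by 1.09, while the other 2 genes tested there did not pass.

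Death effectors rose in 3 of 3 tested, out of 5 on the array. Bid rose by 1.68 on the log2 scale (3 of 5 FVB arrays at the floor, so a lower limit). Casp8 rose by 1.32 and Cflar, an inhibitor of Casp8, by 0.56. Of 8 genes that control Tnf RNA and shedding, 4 were higher and 2 lower. Litaf rose by 1.87, Zfp36l2 by 1.67, Zfp36l1 by 0.59 and the sheddase Adam10 by 1.29. Of 8 other genes tested from a list drawn up as induced by TNF, 5 were higher and 1 lower. Only the Tnfaip genes of that list are named for induction by TNF, and induction was not tested here. Ccl2, a chemokine for monocytes, led at 5.73 (SE 0.240, limma adjusted p 4.01e-11, a lower limit with 2 FVB arrays at the floor). The adhesion genes Icam1 and Vcam1 rose by 3.51 and 3.06, and the neutrophil chemokine Cxcl1 by 2.19.

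**Figure D3:**
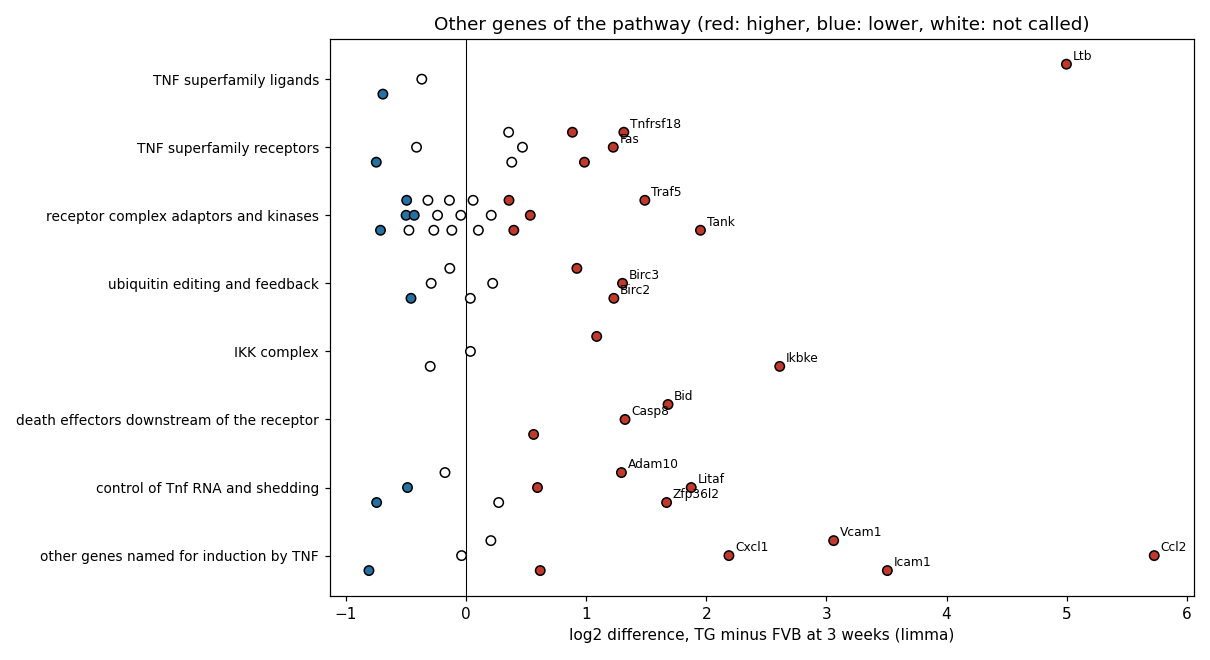
Limma log2 differences (horizontal axis, transgenic minus FVB at 3 weeks) of the 62 tested pathway genes outside the 7, by role (vertical axis), in red where called higher, blue where called lower and white where not called. Of the 62 genes, 27 were higher and 10 lower, and Ccl2 (5.73) and Ltb (5.0) lie farthest to the right.

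Markers of some cell types rose with these genes, and those of others did not. The summed signal of 13 macrophage and monocyte markers was 5157 to 6804 on the FVB arrays and 39573 to 51786 on the transgenic arrays of 3 weeks, and 9 of 11 tested were higher and 1 lower. For 13 T and NK cell markers the sum was 614 to 1441 against 1997 to 4525, with 6 of 6 tested higher, and Ncr1 lay at the floor on every transgenic array of 3 weeks. For 10 neutrophil markers the sums were 668 to 2854 on the FVB arrays against 1399 to 2196. They overlapped through 1 FVB female array, at 2854, while the other read 1022.5 and FVB males 668 to 898. Of 5 tested 3 were higher and 1 lower, and Ngp and Ly6g lay at the floor on every transgenic array of 3 weeks. The 11 cardiomyocyte markers summed to 213689 to 347750 on FVB arrays and to 118860 to 224782 on transgenic arrays of 3 weeks, with 9 lower and 1 higher. For 9 endothelial markers the sums overlapped, at 9542 to 17446 against 12495 to 14316, with 0 of 9 tested higher and 3 lower. Sums also overlapped for fibroblasts (4 of 9 tested higher, 2 lower), B cells (2 of 7 higher, 0 lower) and thymus and lung (1 of 4 higher, 2 lower). For B cells the overlap too came from 1 FVB female array, at 2627, with the other at 1250. The B cell sums of FVB males were 894 to 1160, against 1649 to 2285 on the transgenic arrays of 3 weeks. Smooth muscle and pericyte sums were 5545 to 7829 on FVB arrays and 8166 to 10518 on transgenic arrays of 3 weeks, without overlap. Of the 6 smooth muscle and pericyte markers tested 2 were higher and 3 lower. Skeletal muscle sums were lower without overlap, at 3310 to 3967 against 1282.5 to 2839, and 3 of 3 markers tested were lower. The part of these cell types in the rises of the 7 genes was not tested.

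**Figure D4:**
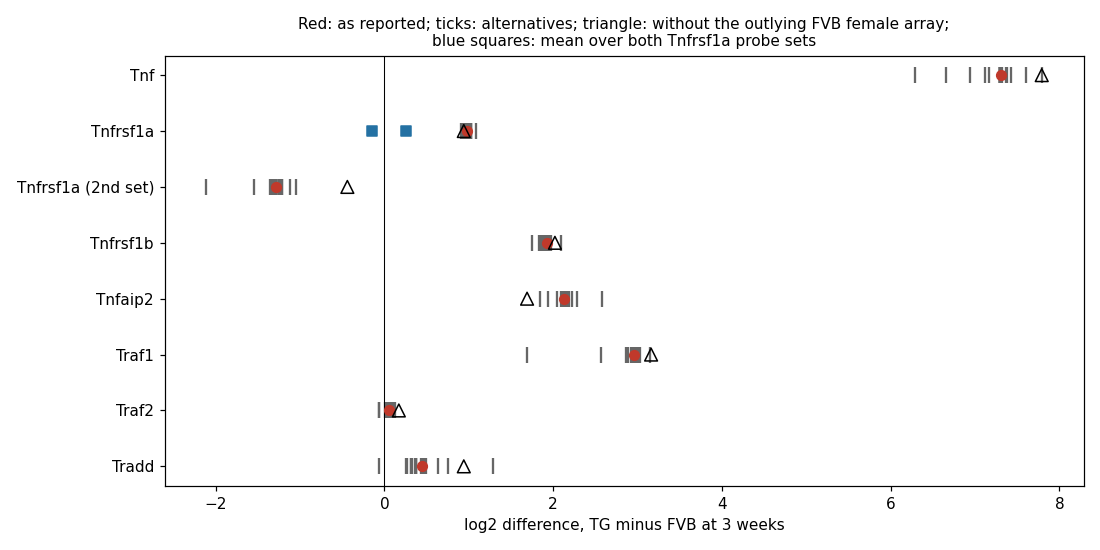
Log2 difference between transgenic and FVB hearts at 3 weeks (horizontal axis) of the 8 probe sets as reported (red) and under other settings (ticks), without the outlying FVB female array (triangles) and with both Tnfrsf1a probe sets averaged (blue squares). Settings that average over probe sets are drawn for Tnfrsf1a alone. Tnf, Tnfrsf1b, Tnfaip2 and Traf1 stay to the right of 0 in every setting that tested them, while Tradd, Traf2 and the averaged Tnfrsf1a cross it.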

How the data were processed

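Gene expression was measured in mouse heart on 18 Affymetrix U74Av2 columns, 17 of them distinct. The authors deposited an intensity for each probe set, linear and never below 0, in a value table. How it was summarised, background-corrected and scaled is not stated in the labels. The trimmed means of the arrays lay between 499.2 and 499.9, so the values were used as deposited.

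Signals were floored at 44.675, the 25th percentile of the pooled values, and log2 was taken. Without the 66 controls, the 60% with the highest mean (7453) were tested by a two-sided moderated test (R 4.3.3; limma 3.58.1, lmFit, eBayes; a mean for each of 6 groups, 11 residual degrees of freedom), with Benjamini-Hochberg adjustment over all of them and calls at 0.05. Fold changes are on this floored scale. The number of arrays limits the precision, and signals at the floor have no order. The mean used by the filter ran over 17 arrays, 12 of them transgenic. A gene high in transgenic hearts alone could therefore be tested and enter the counts. Symbols came from the platform annotation, which named 10833 probe sets by 1 symbol, 396 by several and 1193 by none. The probe set of highest mean represents a gene. Named pathway genes are those called at 3 weeks, up to 4 a role by smallest p. The likeness lists hold the 3 genes with the highest correlation. Marker and pathway lists, members and tests were chosen with earlier results of these data known. Replicate numbers were checked as a pairing: same-numbered arrays had a median correlation of deviations of 0.054, against 0.008 for others, so the numbers were not used. The test was checked on simulated data with independent noise of equal spread on every array. That check did not cover outlying or mislabelled arrays. 31 alternatives were run.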

Additional observations from a re-analysis of the deposited data

Results flagged for a closer look

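The 8 probe sets were examined in the FVB and in the transgenic arrays of 3 weeks, 16 pairs in all. In 5 of the 8 pairs of FVB arrays a single array lay far from the other 4, and in none of the 8 pairs of transgenic arrays. Tnf read 124.9 on the outlying FVB female array (next highest 30.1), Traf1 57.3 (next 17.8), Tradd 3890.8 (next 974.3) and the second Tnfrsf1a probe set 1425.4 (next 154.8). The representing Tnfrsf1a probe set read 799.8 on the library labelled FVB male 2 (next 546.4). In each case the gap to the nearest array took up 0.77 to 0.967 of the range of the 5 arrays, above the critical value of 0.71 for a group of that size, a value that chance passes in about 5% of groups. For Tnf and Traf1 the other 4 FVB arrays lay under the floor, where signals have no order, so the size of those gaps is not well measured. The flags on the outlying FVB female array come from the same array and are not separate findings.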

How the results depend on the processing

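Tnf, Tnfrsf1b and Tnfaip2 were called higher at 3 weeks under all 31 alternatives and Traf1 under all 30 that tested it, while Tnfrsf1a was called in 29 of 31. The log2 difference ran from 6.29 to 7.79 for Tnf, from 1.75 to 2.09 for Tnfrsf1b, from 1.69 to 2.58 for Tnfaip2 and from 1.69 to 3.16 for Traf1. Of the 7 genes 4 to 6 were called at 3 weeks, and 0 at 13 and 40 weeks under all 31. Tnfrsf1a turned to -0.15 with the mean over both probe sets. Traf2 turned to -0.06 with quantile normalisation and ran from -0.07 to 0.17 when each array was left out in turn. Tradd ran from -0.06 to 0.94 over both sexes and from -1.86 to 0.14 in females when each array was left out, and in females was 0.14 without the 3 doubted FVB arrays and with the mean over probe sets and no outlying FVB female array, a setting added after seeing the data. The count of genes differing between the sexes ran from 0 to 3 when each array was left out. With the replicate number as a block, 5 of the 7 genes were called at 3 weeks and 0 with age. The cause of these changes was not tested. Over all probe sets, 3474 were called at 3 weeks, 39 at 13 weeks (14 to 80 over the alternatives) and 50 at 40 weeks (25 to 803, the highest with array weights).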
